A study of Mus musculus with 4 samples.

Results

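The genes described here are 10 transporters of the blood-brain barrier, chosen by name from the 31053 gene rows of the deposited matrices: *Slc2a1*, *Slc7a5*, *Slc16a1*, *Slc38a3*, *Slc19a1*, *Mfsd2a*, *Slco1a4*, *Slco1c1*, *Abcb1a* and *Abcg2*. All 10 were present in every matrix. The data were single-nucleus RNA-seq (snRNA-seq) of brain from 2-month-old female C57/BL6 mice, 2 WT libraries and 2 libraries of mice heterozygous for disruption of *Csf1r* (*Csf1r*+/-, HET), the gene of the receptor on which microglia depend for survival. The heterozygous state was that of the whole animal, no treatment was given to either genotype, and every brain was perfused with heparinized PBS before nuclei were freed without detergent and cleared of myelin debris. Other libraries of the study were not analysed here.

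The brain endothelium is sealed by tight junctions, so polar nutrients enter the brain through carriers in the endothelial membranes, and many lipid-soluble compounds that do enter are returned to the blood by ATP-driven pumps. *Slc2a1* encodes the glucose carrier GLUT1, *Slc7a5* the light chain of the large neutral amino acid exchanger, *Slc16a1* a carrier of lactate and ketone bodies, *Slc38a3* a glutamine carrier, *Slc19a1* the reduced folate carrier and *Mfsd2a* the carrier of lysophosphatidylcholine-bound omega-3 fatty acids. *Slco1a4* and *Slco1c1* encode organic anion carriers, the latter with thyroxine as its best-known substrate. *Abcb1a*, which encodes P-glycoprotein, and *Abcg2*, the breast cancer resistance protein, are the main drug efflux pumps. Several of these genes are not restricted to endothelium, which is why their levels in each class of nuclei are given first.

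Filtering kept 52132 nuclei (WT replicates: 16114 and 15247, HET replicates: 9589 and 11182), with 88097109 to 111488169 UMIs (unique molecular identifiers, each standing for a captured RNA molecule) per library. In microglia-like nuclei *Csf1r* itself was at 802 and 914 CPM (UMIs of a gene scaled to the total of its class and library) in the WT and 584 and 587 CPM in the HET libraries, so both HET libraries lay below both WT libraries. *Csf1r* was also among the markers that assigned nuclei to this class, so its level there is not independent of the assignment. Pairs of libraries shared 33 to 68 cell barcodes, at most 0.465% of either library. By the study's methods the libraries came from separate mice, so p-values measure the spread between animals and preparations together.

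Nuclei were assigned to classes by counts of marker genes, among which none of the transporters was used. Endothelial-like nuclei numbered 397, or 0.762% of the kept nuclei, with 201 and 62 in the WT and 62 and 72 in the HET libraries and a median of 1373 UMIs. Their median mitochondrial share was 2.81 and 3.77% in WT and 3.74 and 2.85% in HET libraries. Over all kept nuclei the medians were 0.144 to 0.657%, further from the 5% limit. How many endothelial nuclei that limit removed from each library is not given here. Among the 14 defining markers of the endothelial-like class *Flt1* was in 97.0% and *Cldn5* in 91.9% of nuclei, but *Cdh5* in 38.8% and *Vwf* in 6.0%. The summed endothelial markers stood at 15478 to 19481 CPM by library against 28.2 to 41.8 CPM in excitatory neuron-like nuclei. Assignment by the same markers fixed this contrast in advance. The smooth muscle genes *Acta2*, *Tagln* and *Myh11* had 0, 0 and 4 UMIs in endothelial-like nuclei. Mural-like nuclei had only 1, 0 and 1 UMIs of them, so these counts cannot show whether mural RNA was absent. The summed mural (pericyte and smooth muscle) markers were at 1978 to 2414 CPM, most of it from *Rgs5* (1931 CPM on average). The pericyte genes *Pdgfrb*, *Abcc9* and *Vtn* were at 16.8, 33.6 and 94.4 CPM on average. Pan-neuronal markers, which these nuclei should lack, were at 2341 and 1937 CPM in the WT and 860 and 1447 CPM in the HET libraries. A further 109 nuclei carried endothelial and mural markers together and are described as a class of their own, since 2 nuclei in a droplet and a nucleus with both sets of RNA cannot be told apart. Only 30 nuclei were mural-like, 4 to 11 per library.

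The gene positions are those of GENCODE release M21 on GRCm38, the assembly also called mm10. *Slco1c1* (chr6:141524368-141570177, plus strand) and *Slco1a4* (chr6:141805440-141856199, minus strand) lie on the same chromosome with 235262 bases between them. *Abcb1a* (chr5:8660077-8748575) lies 49571 bases from its paralog *Abcb1b* on the same strand. The others are *Slc16a1* (chr3:104638668-104658462), *Slc2a1* (chr4:119108711-119137983), *Mfsd2a* (chr4:122946850-122961188), *Abcg2* (chr6:58584523-58695676), *Slc7a5* (chr8:121881150-121907694), *Slc38a3* (chr9:107650634-107669530) and *Slc19a1* (chr10:77032241-77061002).

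Promoters are shown for the 2 neighbouring organic anion carriers, which had the largest shares of their UMIs in endothelial-like nuclei with the libraries pooled (in WT replicate 2 *Abcb1a*, at 39.4%, was above *Slco1c1*), and for *Slc16a1*, whose UMIs were spread over neurons and oligodendrocytes. Each is the 250 bases before the RefSeq start site on GRCm38.p6, read 5′ to 3′ on the strand of the gene and free of annotated exons, at chr6:141856221-141856470 (*Slco1a4*, minus strand), chr6:141524104-141524353 (*Slco1c1*, plus strand) and chr3:104638414-104638663 (*Slc16a1*, plus strand). Capitals mark the GC box, GGGCGG on either strand.
Slco1a4: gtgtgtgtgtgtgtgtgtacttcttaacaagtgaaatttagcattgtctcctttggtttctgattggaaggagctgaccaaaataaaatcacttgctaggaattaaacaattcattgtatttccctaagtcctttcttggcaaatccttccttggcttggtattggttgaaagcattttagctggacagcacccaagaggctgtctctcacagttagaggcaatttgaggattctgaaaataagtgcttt
Slco1c1: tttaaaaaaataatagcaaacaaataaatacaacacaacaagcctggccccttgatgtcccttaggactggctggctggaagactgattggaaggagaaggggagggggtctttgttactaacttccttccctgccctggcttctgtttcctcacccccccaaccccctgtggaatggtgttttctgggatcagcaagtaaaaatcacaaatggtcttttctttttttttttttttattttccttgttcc
Slc16a1: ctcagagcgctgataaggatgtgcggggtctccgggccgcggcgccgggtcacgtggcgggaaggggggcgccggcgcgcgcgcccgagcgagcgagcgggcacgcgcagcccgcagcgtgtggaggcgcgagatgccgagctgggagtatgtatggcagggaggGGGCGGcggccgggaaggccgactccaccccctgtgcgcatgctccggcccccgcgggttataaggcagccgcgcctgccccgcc
The *Slco1a4* and *Slco1c1* windows had 39.2% and 42.8% G or C, and no GC box. The *Slc16a1* window had 76.4% G or C with 1 GC box, and the median over all 32851 windows of the table was 52.4%. RefSeq windows were found for 8 of the 10 transporters. Some had several, 11 windows in all. The windows not shown had from 40.4% (*Abcb1a*) to 67.6% (1 of *Abcg2*) G or C, with *Mfsd2a* at 61.6% and *Slc2a1* at 66.4%. A link between base content and the class of nuclei was not tested. A GC box stood in 5 of the 11 windows (of *Slc16a1*, *Slc2a1*, *Abcg2* and *Slc19a1*), and in 32.7% of all windows. The FOX motif GTAAACA was in 1 of the 11, that of *Abcb1a* (3.17% of all windows). That window, chr5:8566841-8567090, lies upstream of the GENCODE gene span given above and does not adjoin it. The ETS motif CCGGAA (12% of all windows) and the TCF/LEF motif ATCAAAG (3.21%) were in none of the 11. Each motif was searched on both strands.

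Across classes, 7 of the 10 transporters had their highest mean level in endothelial-like nuclei, *Slc16a1* and *Slc38a3* were about as high in the nuclei with both marker sets, and *Slc19a1* was highest in mural-like nuclei. Those 7 were also at least 10-fold above microglia-, oligodendrocyte-, astrocyte-, excitatory neuron- and inhibitory neuron-like nuclei in mean CPM, where 3.83% of the 8542 genes with at least 10 endothelial UMIs were. These levels describe classes drawn from markers of the same nuclei and carry no test. UMIs count the 3′ ends of transcripts, so levels are compared between classes for the same gene and not between genes.

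**Figure D1:**
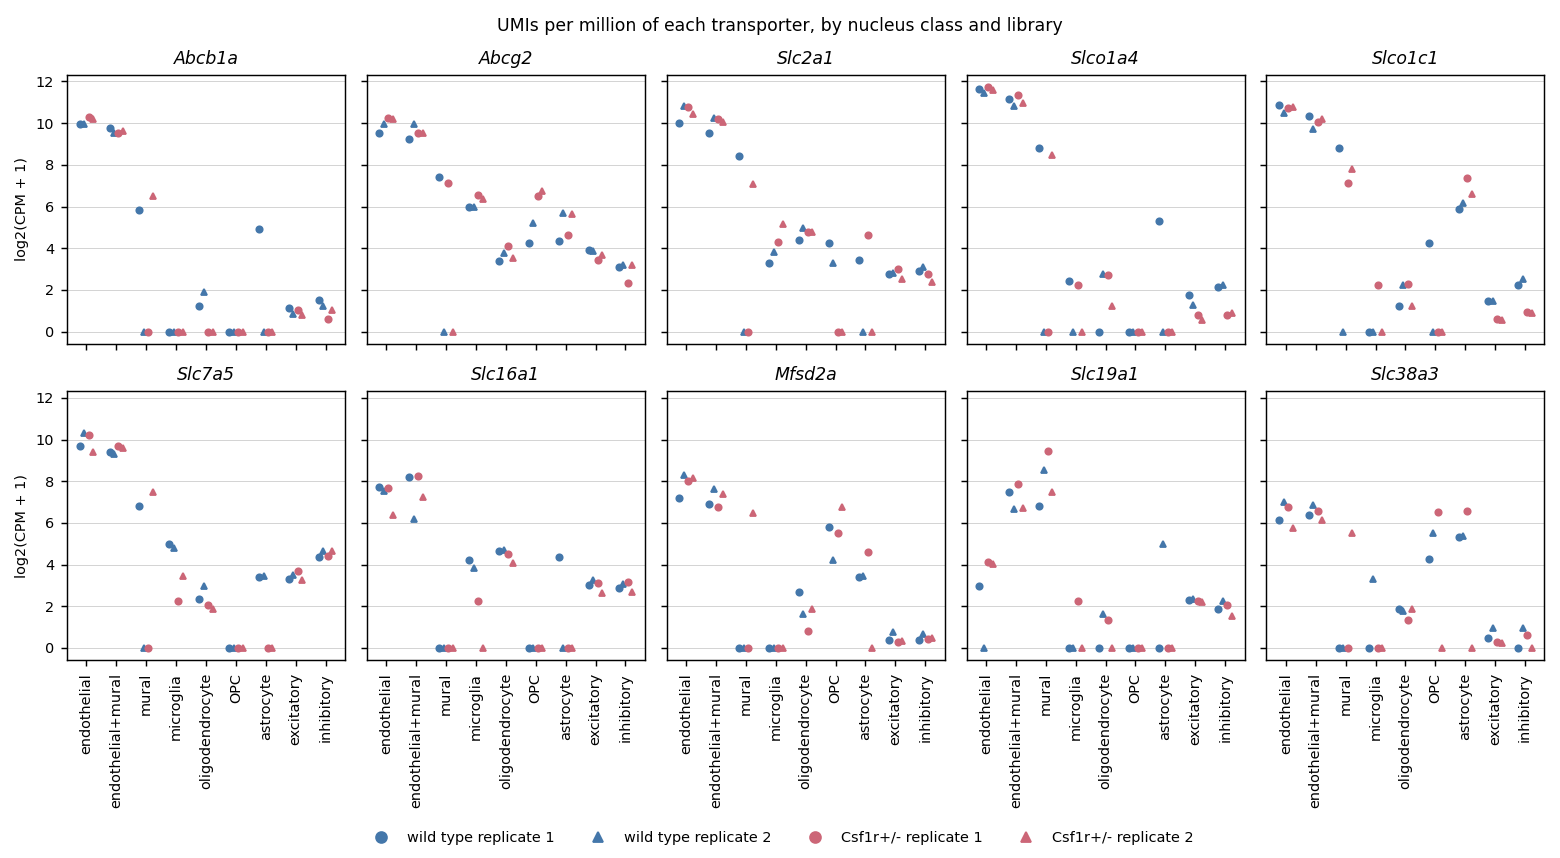
Level of each of the 10 transporters as log2(CPM + 1) in 9 classes of nuclei, a point per library (blue WT, red *Csf1r*+/-, circles replicate 1 and triangles replicate 2). Points at 0 are libraries without a UMI of the gene, and the leftmost group in each panel is the endothelial-like class, which is the highest in 7 panels.

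Of the organic anion carriers, *Slco1a4* had 897, 330, 415 and 406 UMIs in endothelial-like nuclei, or 3135, 2804, 3432 and 3076 CPM, the WT pair being given before the HET pair here and below. Excitatory neuron-like nuclei had 0.488 to 2.36 CPM and oligodendrocyte-like nuclei at most 5.83 CPM. No UMI was found in OPC-like (oligodendrocyte precursor) nuclei. Over all kept nuclei 53.6% of its UMIs sat in endothelial-like nuclei, a class holding 0.174% of all UMIs. With every nucleus thinned to 1000 UMIs, 90.7% of 301 endothelial-like nuclei had a *Slco1a4* UMI, against 0.05% of the thinned excitatory neuron-like nuclei. Without thinning the shares were 94.0% and 0.52%, at median depths of 1373 and 8455 UMIs.

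*Slco1c1* stood at 1901, 1427, 1720 and 1780 CPM in endothelial-like nuclei. Outside the vascular classes its mean was highest in astrocyte-like nuclei, as that of *Slco1a4* was, but the levels differed. Astrocyte-like nuclei had 58.0, 70.8, 166 and 97.7 CPM of *Slco1c1*, from 22 UMIs in 118 nuclei, and their range did not overlap that of oligodendrocyte-like nuclei (1.31 to 3.91 CPM). *Slco1a4* had 4 UMIs in astrocyte-like nuclei, all in WT replicate 1. The share of *Slco1c1* UMIs in endothelial-like nuclei was 33.8% in WT replicate 2 and 51.4 to 52.5% in the other libraries.

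Among the efflux pumps, *Abcb1a* was at 979, 1011, 1257 and 1159 CPM in endothelial-like nuclei. All microglia-like and OPC-like libraries were at 0 UMIs, and both neuronal classes were under 2 CPM. Its paralog *Abcb1b*, with which it can share reads, had a different pattern: 3 UMIs in endothelial-like nuclei and a mean of 90.9 CPM in microglia-like nuclei. *Abcg2* was at 734, 1003, 1215 and 1167 CPM in endothelial-like nuclei and was less confined. Microglia-like nuclei had 62.1, 61.5, 94.2 and 80.3 CPM, above the 9.78 to 14.1 CPM of excitatory neuron-like nuclei in every library, and the endothelial level was 11.8 to 16.3 times the microglial level of the same library. Because excitatory neuron-like nuclei were so many, they held 2606 of the 5335 *Abcg2* UMIs, and endothelial-like nuclei held 11.8%.

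The glucose carrier gene *Slc2a1* had 1034, 1810, 1736 and 1386 CPM in endothelial-like nuclei. WT replicate 1 was the lowest and WT replicate 2 the highest, so that the spread within WT covered both HET libraries. Oligodendrocyte-like nuclei had the next highest mean outside the vascular classes, with 20.3 to 30.5 CPM, a range that overlapped the 8.87 to 35.1 CPM of microglia-like nuclei. The endothelial level was 50.9 to 65.3 times the oligodendrocyte level within libraries. *Slc7a5* had 814, 1266, 1191 and 674 CPM. Inhibitory neuron-like nuclei carried 19.4 to 24.2 CPM of it, above the 8.53 to 12 CPM of excitatory neuron-like nuclei in all 4 libraries. Its partner chain gene *Slc3a2* was at 349, 442, 595 and 508 CPM in endothelial-like nuclei.

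*Mfsd2a* was a low-count gene, with 148 UMIs in endothelial-like nuclei, or 147, 314, 256 and 288 CPM. Yet 34.3% of its 432 UMIs sat in this class. OPC-like nuclei had 7 UMIs (17.9 to 107 CPM in 63 nuclei), microglia-like nuclei had 0, and neurons were under 1 CPM.

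*Slc16a1* had 213, 187 and 207 CPM in both WT libraries and HET replicate 1, and 83.3 CPM in HET replicate 2, from 11 UMIs. In the nuclei with endothelial and mural markers it was at 71.3 to 309 CPM, a range that overlapped that of endothelial-like nuclei, and the 30 mural-like nuclei had no UMI (95% exact Poisson upper bound 69.9 CPM). Oligodendrocyte-like nuclei had 24.4, 25.1, 21.9 and 15.8 CPM. Every library was above the 5.24 to 8.74 CPM of excitatory neuron-like nuclei, a contrast in which the shallower class was the higher. Only 3.72% of *Slc16a1* UMIs sat in endothelial-like nuclei. *Slc38a3* was thinner still, with 20, 15, 13 and 7 UMIs in endothelial-like nuclei (69.9, 127, 107 and 53.0 CPM). Astrocyte-like nuclei had 12 UMIs (0 to 94.8 CPM) and OPC-like nuclei 8, and their ranges overlapped the endothelial range. Within libraries the endothelial level was the higher in all 4 against either class, each of which had 1 library at 0 UMIs. With so few UMIs an order between these classes remains uncertain and was not tested.

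**Figure D2:**
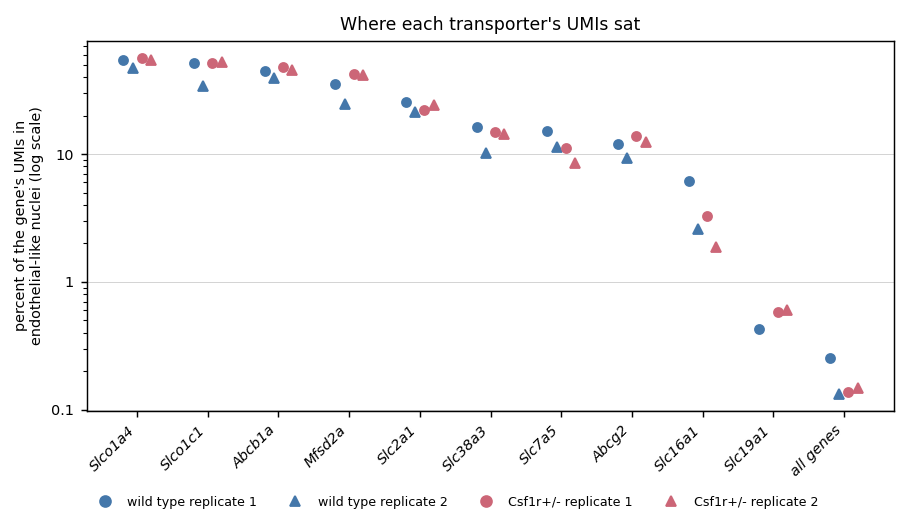
Percent of each gene's UMIs over all kept nuclei that sat in endothelial-like nuclei, on a log scale, a point per library. *Slco1a4*, *Slco1c1*, *Abcb1a* and *Mfsd2a* were between 24.7% and 56.8%, and all genes together were between 0.134% and 0.257%. The WT replicate 2 point of *Slc19a1*, at 0, cannot be drawn.

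The reduced folate carrier gene *Slc19a1* was higher in both other vascular classes than in endothelial-like nuclei. Endothelial-like nuclei had 2, 0, 2 and 2 of its UMIs (6.99, 0, 16.5 and 15.2 CPM), and 1.51% of them had any, against 3.66% of the deeper excitatory neuron-like nuclei. Mural-like nuclei had 2, 2, 5 and 4 UMIs, or 112, 374, 704 and 178 CPM, in 20 to 60% of nuclei. The nuclei with both marker sets had 28, 7, 15 and 9 UMIs, or 178, 99.9, 231 and 106 CPM. All 4 libraries were higher in the mural-like than in the endothelial-like class. Pooled over libraries, the mural level was 246 CPM with a 95% exact Poisson interval of 131 to 421 CPM, which covers counting error only. Thinned to 1000 UMIs, *Slc19a1* was seen in 36.4% of 22 mural-like nuclei, 19.0% of those with both marker sets, 1.66% of endothelial-like and 0.55% of excitatory neuron-like nuclei. The opposite held for *Slco1a4*, at 18.2%, 84.8% and 90.7%. Most of the 1513 *Slc19a1* UMIs were in neurons at low level, 3.58 to 4.03 CPM in excitatory neuron-like nuclei.

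**Figure D3:**
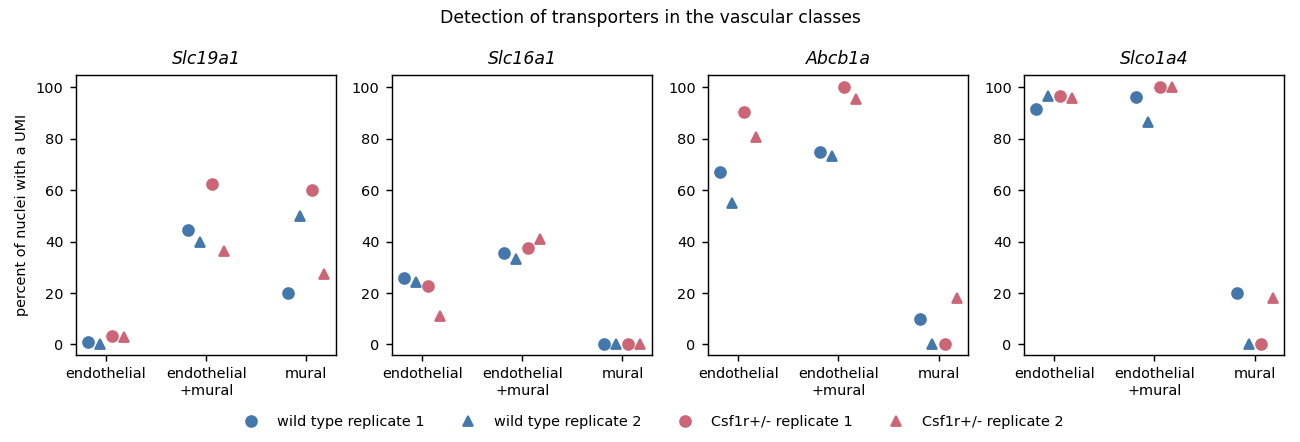
Percent of nuclei with at least 1 UMI of *Slc19a1*, *Slc16a1*, *Abcb1a* and *Slco1a4* in the 3 vascular classes (endothelial-like, nuclei with endothelial and mural markers together, mural-like), a point per library. *Slc19a1* was at 3.23% or below in endothelial-like nuclei and at 20% or above in both other classes, and *Slc16a1* was at 0 in mural-like nuclei.

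The transporters were found together in single nuclei. In endothelial-like nuclei thinned to 1000 UMIs, at least 3 of the 10 genes were detected in 94.4, 92.3, 93.6 and 95% of nuclei by library. Thinned excitatory neuron-like nuclei reached 3 in at most 0.2%, and 94.6 to 95.8% of them had none. In microglia-like nuclei none reached 3.

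The genes most alike in pattern were sought over 24 points, 6 classes in 4 libraries, by Pearson's r of log2(CPM + 10) with the mean scaled profile of the 10. Libraries and depth are shared by the points. They were *Itga1*, an integrin chain (r = 0.992), *Pltp*, a phospholipid transfer protein (0.991), *Adgrf5*, an adhesion receptor (0.986), *Igfbp7*, a secreted binding protein (0.984), and *Hspb1*, a small heat shock protein (0.984). The transporters themselves ranged from 0.982 or 0.983 for *Slco1a4*, *Abcb1a* and *Mfsd2a* to 0.491 for *Slc19a1*. Each transporter is part of the mean it was compared with, which raises its r. Other genes searched needed at least 200 UMIs in endothelial-like nuclei, where most of the 10 were highest. High values of r were thus favoured in advance.

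Of a list of 35 other barrier carriers and pumps, 27 had at least 10 UMIs in endothelial-like nuclei, and 18 of the 27 were highest there among the 6 classes with enough nuclei in each library, as were 40.7% of all genes with at least 10 such UMIs. The 4 with the highest level there were the taurine carrier gene *Slc6a6* (1517, 1189, 1629 and 1401 CPM), the zinc importer gene *Slc39a10* (968, 1020, 1125 and 1007 CPM), the lipid flippase gene *Atp10a* (559, 875, 885 and 750 CPM) and the cationic amino acid carrier gene *Slc7a1* (489, 459, 455 and 606 CPM). *Slc12a2*, *Slc44a1* and *Abca1* were higher in other classes, the first 2 in oligodendrocyte-like and the last in microglia-like nuclei. Of 15 receptor and transcytosis genes 12 had at least 10 UMIs, and 9 of these were highest in the endothelial-like class, with the leading levels in *Igf1r* (2331, 3228, 2563 and 3121 CPM), the transferrin receptor gene *Tfrc* (528, 646, 380 and 689 CPM), *Cgnl1*, a junction protein gene (451, 340, 504 and 348 CPM), and *Insr*, the insulin receptor gene (332, 340, 256 and 439 CPM). A list of 17 counterparts held transporters many of which are better known from neurons and glia. Of the 17, 6 had at least 10 UMIs, and of these *Slc25a32* alone was highest in endothelial-like nuclei (41.2 CPM on average). *Slc1a2*, the astrocytic glutamate carrier gene, had 290 CPM on average in endothelial-like and 3195 CPM in astrocyte-like nuclei. *Slc1a2* and *Slc1a3*, both of this list, were among the markers that assigned nuclei to the astrocyte-like class. Their order between these classes was thus largely fixed in advance. *Slc38a2*, a neutral amino acid carrier gene, had 113 CPM in endothelial-like and 332 CPM in oligodendrocyte-like nuclei, and the monocarboxylate carrier gene *Slc16a7* had 30.6 CPM in endothelial-like and 177 CPM in excitatory neuron-like nuclei.

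The comparison of genotypes asked whether loss of a *Csf1r* allele changed the transporters. In endothelial-like nuclei it found no transporter past either threshold. *Abcg2* had the largest increase and *Slc16a1* the largest decrease in the fit, and neither was separated from 0 by its 95% interval. Sums of UMIs per library were compared with the quasi-likelihood test of edgeR, which gave 9 of the 10 transporters a result. *Slc19a1*, with 6 UMIs, was left out. At the study's threshold of an unadjusted p of at most 0.01, 0 of the 9 were called, where 3.63% of all 3889 genes tested were (0.514% higher and 3.11% lower in HET). The study used that threshold with the likelihood-ratio test of edgeR and more mice per genotype, so the calls are not directly comparable. With Benjamini-Hochberg adjustment over all genes none of the 3889 was below 0.05 in edgeR (387, or 9.95%, had an unadjusted p below 0.05), and DESeq2 called 21 genes at the unadjusted threshold. Transcripts of 5 transporters were higher and of 4 lower, with a median log2 fold change of 0.06, and the median over all genes tested was -0.00.

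**Figure D4:**
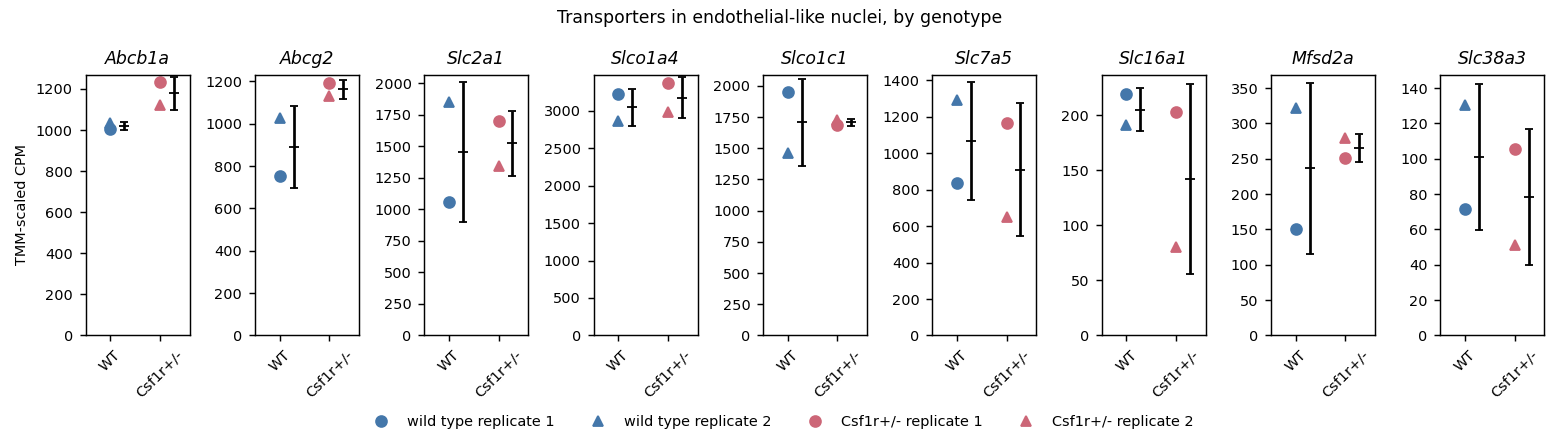
Level of the 9 tested transporters in endothelial-like nuclei, in CPM scaled by TMM factors, each panel with its own axis from 0 (blue WT, red *Csf1r*+/-). Bars give the mean and SD of 2 libraries, and the genotypes did not overlap for *Abcb1a* and *Abcg2*.

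Scaled by TMM factors, *Abcg2* reached 754 and 1026 CPM for WT, and 1193 and 1130 CPM for HET libraries (890 ± 192 against 1162 ± 45.1, SD, n = 2). Both HET libraries lay above both WT libraries. The log2 fold change was 0.40 (SE 0.24, 95% interval -0.11 to 0.91, edgeR adjusted p = 0.637). *Abcb1a* reached 1234 and 1122 CPM in HET against 1006 and 1035 CPM in WT libraries, again without overlap, at a log2 fold change of 0.21 (95% interval -0.27 to 0.69, edgeR adjusted p = 0.863). Such separation was seen for 2 of the 9 transporters and for 37.9% of all genes tested. In nuclei thinned to 1000 UMIs *Abcb1a* was detected in 64.8, 40.4, 76.6 and 68.3% of endothelial-like nuclei by library. Of the 14 endothelial markers 11 had a higher and 3 a lower mean CPM in HET, before scaling by TMM factors. Their unscaled sum was 15478, 15531, 19481 and 17332 CPM, higher in both HET libraries. The TMM factors were 0.973 and 0.977 in WT and 1.02 and 1.03 in HET libraries. In the fit 49.7% of all genes tested were higher in HET. The markers also assigned nuclei to this class, so their levels there are not independent of the assignment. Among single markers the log2 fold changes were 0.15 for *Flt1* and 0.21 for *Cldn5*, without overlap, and 0.14 for *Pecam1* and 0.01 for *Cdh5*, with overlap. Pan-neuronal markers lay lower in both HET libraries. With free RNA, estimated from these same markers, subtracted, the log2 fold changes of *Abcg2* and *Abcb1a* were 0.30 and 0.10.

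*Slc16a1* stood at 219 and 191 CPM in WT libraries, against 203 and 80.7 CPM in the HET pair. The groups overlapped, and the lower HET mean rested on HET replicate 2. The log2 fold change was -0.58 (SE 0.37, 95% interval -1.35 to 0.19, edgeR adjusted p = 0.665). It was -1.33 without HET replicate 1 (unadjusted p = 0.0066 in edgeR) and -0.04 without HET replicate 2, where the remaining HET library was taken to vary like the WT pair. This was the only transporter called in endothelial-like nuclei under any alternative.

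The remaining 6 transporters overlapped between genotypes. *Slco1a4* and *Slco1c1*, which had the most counts, had log2 fold changes of 0.06 (95% interval -0.40 to 0.52) and -0.01 (-0.50 to 0.48). *Slc2a1* had a log2 fold change of 0.08 (-0.48 to 0.65), *Slc7a5* of -0.21 (-0.82 to 0.41), *Mfsd2a* of 0.30 (-0.42 to 1.02) and *Slc38a3* of -0.24 (-1.23 to 0.74). The intervals were widest for the genes with the fewest counts.

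**Figure D5:**
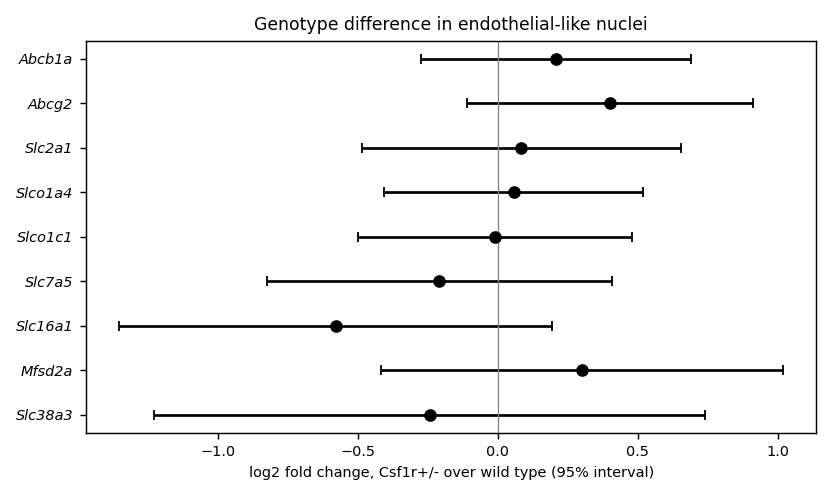
Log2 fold change of each tested transporter in endothelial-like nuclei, HET over WT, with its 95% interval from the quasi-likelihood fit. All 9 intervals include 0, and those of *Slc38a3* and *Slc16a1* are the widest.

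No gene of the other lists was called. Of the 35 other carriers and pumps 20 passed the filter in endothelial-like nuclei, 11 higher and 9 lower, with 0 called and a median log2 fold change of 0.02. *Slc6a6*, *Slc39a10*, *Atp10a* and *Slc7a1* had log2 fold changes between 0.03 and 0.15. *Slc3a2* had one of 0.43 (SE 0.26) without overlap of the genotypes, while that of its partner *Slc7a5* was negative. Of the 15 receptor genes 9 passed, 3 higher and 6 lower, with 0 called, a median of -0.01, and log2 fold changes of -0.03 for *Igf1r*, -0.18 for *Tfrc*, -0.00 for *Cgnl1* and -0.01 for *Insr*. Of the 17 counterparts 2 passed, *Slc1a2* at -0.65 (SE 0.34) and *Slc38a2* at -0.48 (SE 0.45), and neither was called. *Slc38a1*, another glutamine carrier gene, had 15 and 5 UMIs in WT and 0 and 3 in HET endothelial-like nuclei. It was under the detection filter, and its log2 fold change was -1.98 (SE 0.81, unadjusted p = 0.0205 in edgeR). Of the 17 counterparts, *Slc38a1* is one of those better known from neurons and glia. The free RNA estimated in endothelial-like nuclei was 20.82 and 18.45% in WT and 8.63 and 13.29% in HET libraries. This estimate was made from the pan-neuronal markers, so it restates their lower level in both HET libraries. The part of free RNA in the *Slc38a1* counts was not tested.

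The share of endothelial-like nuclei did not separate the genotypes, at 1.25 and 0.407% in WT and 0.647 and 0.644% in HET libraries (exact permutation test over libraries, two-sided, p = 1, where 0.333 is the smallest p that 2 against 2 libraries allow). These are shares of the kept nuclei, and removal by the mitochondrial limit was not compared between libraries.

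Outside the endothelium few transporters passed the filter, and none was called. They were *Abcg2* in microglia-like nuclei (log2 fold change 0.43, SE 0.35, with 6.63% of all genes tested called), *Slco1c1* in astrocyte-like nuclei (0.98, SE 0.72, 3.74% called), *Abcg2* and *Slc7a5* in excitatory neuron-like nuclei (-0.32, SE 0.17, and 0.13, SE 0.20, 0.297% called) and *Slc7a5* in inhibitory neuron-like nuclei (0.03, SE 0.19, 0.22% called). In sums over all kept nuclei no transporter passed the filter. A smaller number of endothelial nuclei and less RNA per nucleus cannot be told apart in those sums.

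Without the detection filter, *Slco1a4* and *Slco1c1* were lower in both neuronal classes of HET, at levels near the lowest measured. In excitatory neuron-like nuclei *Slco1a4* stood at 2.36 and 1.41 CPM in WT libraries, against 0.743 and 0.488 CPM in the HET pair (log2 fold change -1.58, SE 0.42, unadjusted p = 0.00592 in edgeR), and *Slco1c1* at 1.75 and 1.77 against 0.513 and 0.470 CPM (-1.78, SE 0.33, unadjusted p = 0.000713). In inhibitory neuron-like nuclei the log2 fold changes were -2.16 (SE 0.51) and -2.25 (SE 0.48). Of all genes in these unfiltered fits 0.421% and 0.573% were called. *Slc38a3* and *Mfsd2a* were lower in both HET libraries of excitatory neuron-like nuclei without being called (-1.68, SE 0.52, and -0.92, SE 0.49). *Abcb1a* was at 1.19 and 0.778 against 1.06 and 0.759 CPM in excitatory neuron-like nuclei. In inhibitory neuron-like nuclei *Abcb1a* did not overlap between genotypes (log2 fold change -1.04, SE 0.64), without being called. In microglia-like nuclei *Slc7a5* had 7 and 6 UMIs in WT and 1 and 2 in HET libraries (-2.06, SE 0.81). *Slc2a1* went the other way there, with 2 and 3 against 5 and 7 UMIs (1.20, SE 0.75). Neither was called. Separation of the genotypes alone is common with so few libraries: in endothelial-like nuclei 37.9% of all genes tested did not overlap. The same share is not given here for neuronal and microglia-like nuclei, so these separations are not read as results about the transporters. The summed endothelial markers were at 31.8, 41.8, 28.2 and 33.3 CPM in excitatory neuron-like nuclei, where the genotypes overlapped, and at 37.9, 39.4, 23.8 and 25.1 CPM in inhibitory neuron-like nuclei, where both HET libraries were lower. WT replicate 1 held 201 endothelial-like nuclei and each other library 62 or 72. The part of free endothelial RNA in these neuronal counts was not tested.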

How the data were processed

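The authors deposited whole-number UMI counts per gene and barcode, from 3′ Chromium libraries processed with Cell Ranger on mm10 per the submitters' processing notes, without normalization. Whether intronic reads were counted is not given in the sources used here. Nuclei of 2 WT and 2 HET libraries were kept if they had between 500 and 50000 UMIs, over 200 detected genes and a mitochondrial share below 5%, with median depths of 5490, 4636, 7454 and 6656 UMIs. Intervals from counts cover counting error only.

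A non-neuronal class needed 3 distinct markers, 40 marker UMIs per 10000, 3 times the marker UMIs of any other class and under 60 pan-neuronal UMIs per 10000. These thresholds were set after the marker distributions were seen and replace the study's clusters. In the endothelial-like class 1 nucleus lay between 40 and 50 marker UMIs per 10000, and 30 nuclei outside it lay between 30 and 40. Scrublet scores (scanpy 1.11.5) were high in 13 endothelial-like nuclei and 26 had markers of a second class; they were kept, and removed in an alternative.

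UMIs were summed per library and class and compared with edgeR 4.0.16 (TMM, two-sided quasi-likelihood test, limma 3.58.1, R 4.3.3) over all genes detected in 10% or more of the nuclei of either genotype and with 10 or more UMIs in all, in classes with 10 nuclei in each library. Mural-like and OPC-like nuclei were thus not tested. Benjamini-Hochberg adjustment ran over all genes tested. The fits were tested on simulated data. Alternatives were the likelihood-ratio test, DESeq2 1.42.0, RLE factors, library totals, no filter on detection, nuclei of 1000 UMIs or more, doublets removed and a stricter marker rule. Further ones were reassignment of nuclei by likelihood (394 of 397 endothelial-like nuclei kept), the replicate block, free RNA subtracted and leaving out each library. In another, endothelial-like nuclei, mural-like nuclei and those with both marker sets were summed. Likelihood profiles came from the same marker-assigned nuclei, markers included, so keeping most of them was largely fixed in advance. Free RNA was estimated from the share of pan-neuronal markers in a class against their share in all kept nuclei. Dropping the limit on neuronal markers was added after the data were seen. For detection, nuclei were thinned to 1000 UMIs, with at most 500 neurons of a class per library.

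The 10 transporters, the other lists and the markers were chosen with earlier results of these data known. Of each other list, genes past the study's threshold and the 4 highest in endothelial-like nuclei are named, besides the 5 genes most alike (no class marker, at least 200 endothelial UMIs) and *Slc38a1*. *Slc3a2*, *Abcb1b*, *Slc12a2*, *Slc44a1*, *Abca1* and the markers named were chosen after their values were seen. Positions are from GENCODE M21, matched by 99.6% of gene rows, and promoters from RefSeq.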

Additional observations from a re-analysis of the deposited data

Results flagged for a closer look

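The fold changes of 4 of the 10 transporters between HET and WT pointed opposite ways in 2 or more classes, with both libraries of a genotype on the same side in each class. By the same rule 19.3% of the 17266 genes with at least 10 UMIs in 2 or more classes did so, and 33.8% of the 4359 genes with 10 in each of the 6 classes. The differences between classes were not tested. *Abcb1a* had a log2 fold change of 0.21 in endothelial-like and -1.04 in inhibitory neuron-like nuclei. *Abcg2* had 0.40 in endothelial-like, 0.43 in microglia-like and -0.32 in excitatory neuron-like nuclei. *Slc2a1* had 1.20 in microglia-like and -0.49 in inhibitory neuron-like nuclei. *Slco1c1* had 0.98 in astrocyte-like, -1.78 in excitatory neuron-like and -2.25 in inhibitory neuron-like nuclei. Most of the neuronal values and that of *Slc2a1* in microglia-like nuclei come from genes under the detection filter.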

How the results depend on the processing

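Endothelial-like nuclei were few, and the number of genes called there moved with the processing. Against 141 genes at an unadjusted p of at most 0.01, DESeq2 called 21, doublets removed 234, likelihood reassignment 212, free RNA subtracted 27, endothelial-like and mural-like nuclei summed 81 and no limit on neuronal markers 50, and leaving out a library gave 13 (without WT replicate 1) to 192 (without HET replicate 2). Against 0 genes at an adjusted p below 0.05, the likelihood-ratio test gave 52, at least 1000 UMIs 16, doublets removed 114, the stricter marker rule 68, likelihood reassignment 7, free RNA subtracted 1, and leaving out a library 0 to 70. No transporter was called in these fits except *Slc16a1* without HET replicate 1, so the count was 0 to 1. In the other classes together, against 469 genes, the likelihood-ratio test called 709, DESeq2 264, no detection filter 811, free RNA subtracted 156 (non-neuronal classes), no limit on neuronal markers 258, and leaving out a library 289 to 788; 4 transporter results were called without the detection filter. Over all kept nuclei, against 13 genes, they were 40 (likelihood-ratio test), 68 (DESeq2), 21 (library totals), 58 (no filter) and 7 to 182 (a library left out). The causes were not tested.

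With the replicate block, 91 genes were called in endothelial-like, 516 in the other classes and 18 over all kept nuclei. No transporter was called with it. Over the genes tested in endothelial-like nuclei, deviations from the genotype mean correlated at r = -0.06 between libraries of the same replicate number. With 2 libraries per genotype, both numbers give this same r by construction. The red blood cell gene *Hbb-bs* had 304 and 0 UMIs in WT, and 49 and 0 in HET endothelial-like nuclei. Whether libraries of the same number shared a batch was not tested.

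Of 153 alternative fold changes of the transporters 132 kept direction and side of the threshold, 20 changed sign and 1 passed the threshold. *Slc2a1* was -0.0452 with likelihood reassignment and -0.0223 with free RNA subtracted, and *Slco1a4* -0.0422 and -0.0543. *Slco1c1* was 0.0124 with DESeq2, 0.0107 with RLE, 0.063 with library totals, 0.0731 without the filter, 0.0328 at 1000 UMIs and 0.0095 with the block. With a library left out, the lone library being assumed to vary like the others, log2 fold changes ran from -0.28 to 0.55 (*Slc2a1*), -0.0026 to 0.15 (*Slco1a4*), -0.16 to 0.22 (*Slco1c1*), -0.66 to 0.15 (*Slc7a5*), -0.28 to 0.85 (*Mfsd2a*), -0.78 to 0.21 (*Slc38a3*) and -1.33 to -0.04 (*Slc16a1*). The difference in the share of endothelial-like nuclei, -0.18 percentage points, ran from -0.60 to 0.24, the latter without WT replicate 1. Of the 10 transporters, 10 had their highest mean in endothelial-like nuclei among the 6 tested classes, and 9 to 10 with a library left out. Of all genes with at least 10 endothelial UMIs, 40.7% were highest there. The 10 include *Slc19a1*, with 6 UMIs there, at 9.67 against 7.58 CPM in astrocyte-like nuclei, with overlapping ranges. Pooled over libraries it was lower, at 9.14 against 11.3 CPM. Mural-like nuclei, where *Slc19a1* was highest, are not among the 6 classes. Astrocyte-like nuclei could not be fitted at 1000 UMIs (9 nuclei in 1 library), and free RNA was not subtracted from neurons.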
